A study of Homo sapiens with 6 samples.

Results

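This account covers 40 human genes of cell-matrix adhesion: integrin chains, laminin chains, the adaptor proteins of focal adhesions, the proteins that tie them to actin, and a pair of nectins. They were taken by gene symbol from the 63563 rows of the deposited gene table, and all 40 were found. RKO is a colorectal cancer cell line. The study compared 3 libraries of RKO cells carrying an empty vector, called EV and given the genotype WT in the labels, with 3 libraries of RKO cells overexpressing connexin 43 (Cx43, the gap junction protein encoded by GJA1), called OVER43. No treatment, time point or other allele is given in the labels, and both groups grew in the same serum-containing medium. The labels do not say whether the overexpressing cells were 1 clone or a pool, nor whether separate cultures gave the 3 libraries of each group. The p-values therefore measure the spread between these libraries, which may be technical.

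Integrins are receptors made of 1 alpha and 1 beta chain that cross the plasma membrane and bind matrix proteins outside the cell. Laminins, built of an alpha, a beta and a gamma chain, are the main adhesive proteins of the basement membrane under epithelia, and are bound by integrins with the chains ITGA3, ITGA6 and ITGA7. Inside the cell, talin and kindlin switch integrins on, adaptors such as paxillin and the ILK complex assemble on their tails, and vinculin, alpha-actinin and zyxin join the assembly to actin filaments, forming the focal adhesion. In colorectal epithelium this machinery holds cells to the basement membrane and passes signals through the kinases PTK2 (focal adhesion kinase) and SRC.

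Values are FPKM, fragments per kilobase of transcript and per 1 M mapped fragments (M, mega), as deposited. Low FPKM values came in whole steps, from which depths of 42.5 to 52.1 M fragments per library were computed, so 1 FPKM stood for 42.5 to 52.1 fragments per kilobase. GJA1 read 23.2, 26.0 and 24.9 FPKM in OVER43 but 0.2999, 0.351 and 0.394 FPKM in EV, which goes with the labels. Of 7 colorectal epithelial markers 4 (EPCAM, KRT8, KRT18 and CDX2) reached 1 FPKM, while CDH1 and VIL1 stayed below it and KRT20 was listed at 0. None of 7 fibroblast and none of 4 endothelial markers reached 1 FPKM, while the leukocyte marker CD68 did. PGK1, a glycolytic enzyme that cells generally express, was listed at or near 0 in all 6 libraries, so a value near 0 in this table need not mean that a gene was silent.

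Among the 32 members that could be tested, 7 were higher and 10 lower in OVER43 than in EV (limma on log2(FPKM + 1), Benjamini-Hochberg adjusted over all 12205 genes tested, threshold 0.05). Of 10 tested integrin chains 7 were called, all as lower, and the rises lay among adaptors, actin linkers and 1 laminin chain. Of these 7, ITGA1 met the filter on low values through the EV libraries, where it is high, so its call is a description. The calls of ITGA1 and ITGB1 ended under several alternatives given below. Over all genes tested 28.4% were higher and 17.5% lower, 45.9% in all, so the share of members called, 53.1%, lay near that of the whole table. The members' values did not overlap between the groups for 20 of the 32, or 62.5%, against 56.3% of all genes. The median log2 fold change was -0.07 over the tested members and 0.05 over all genes. No called member changed 2-fold: the called changes ran from -0.86 to 0.50 on the log2 scale, and 10 of the 17 were at least 0.3 in size. With the libraries scaled to equal FPKM sums, the split over all genes turned from 3462 higher and 2138 lower to 1867 higher and 3579 lower, and that of the members to 4 higher and 18 lower. In the RNA of whole cultures, less RNA per cell and fewer cells expressing a gene cannot be told apart.

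**Figure D1:**
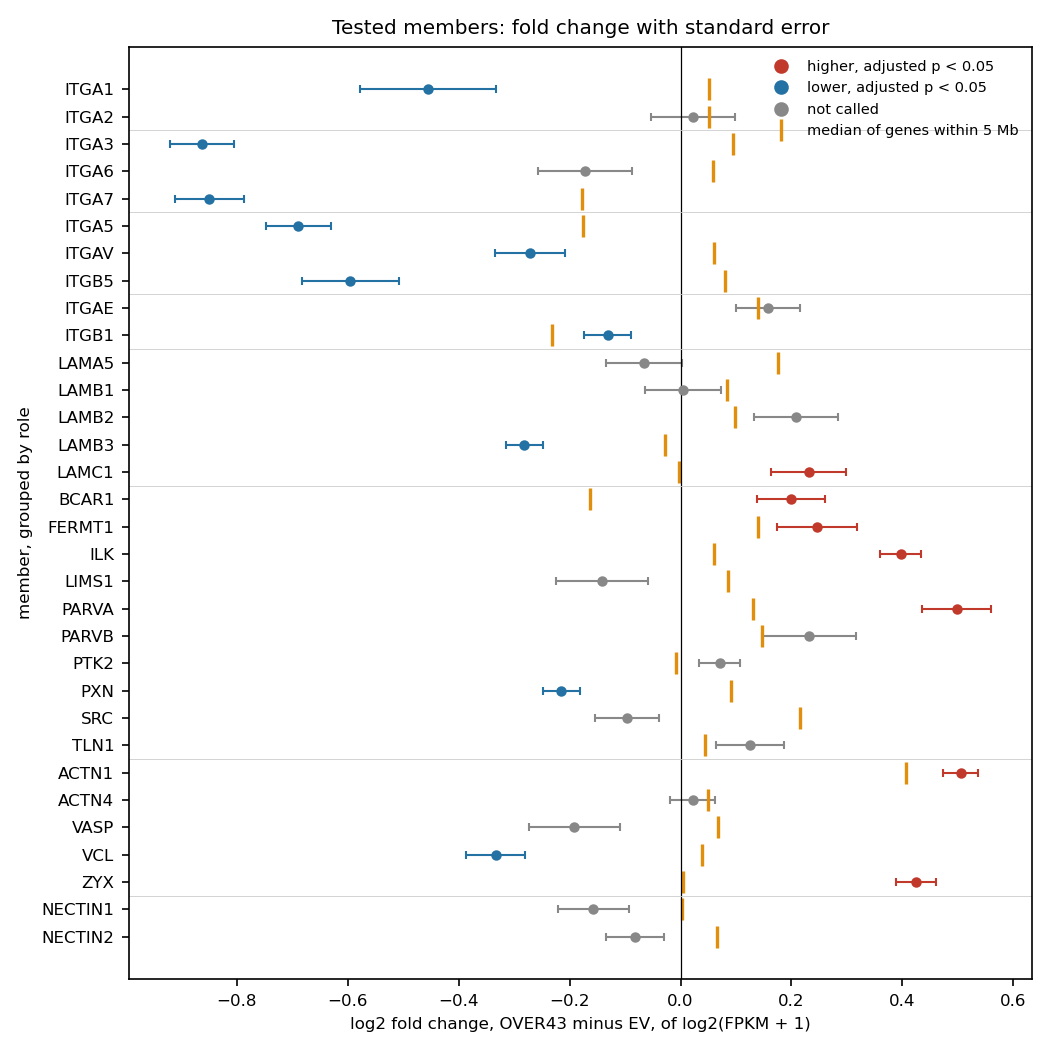
Log2 fold change (OVER43 minus EV, on log2(FPKM + 1)) of the 32 tested members with its standard error, grouped by role, with the median of tested genes within 5 Mb as an orange mark. ITGA3 and ITGA7 lie farthest to the left, at -0.86 and -0.85, and ACTN1 and PARVA farthest to the right, both at 0.50.

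The 8 members below the filter of 1 FPKM were the integrin chains ITGB3, ITGB4, ITGB6 and ITGB8, the laminin chain LAMA3, the kindlin FERMT2, the tensin TNS3 and the actin crosslinker FLNA. Their highest value in any library was 0.445 FPKM, for ITGB4 in EV. They are listed near 0 in both groups and no change is given for them.

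The laminin-binding alpha chains ITGA3 and ITGA7 were roughly halved in OVER43, while ITGA6, the other laminin-binding alpha chain tested, was not called. ITGA3 (chr17:48133332-48167845 in the deposited table, whose positions are those of the hg19 build and can span neighbouring genes: 1 gene for ITGA3, 5 for ITGA7, 7 for ITGA5, 2 for LAMB3, 3 for ACTN1 and 8 for ZYX) pairs with ITGB1 and binds laminins of the epithelial basement membrane. It was measured at 18.3, 17.9 and 17.1 FPKM in OVER43 and at 33.9, 34.6 and 30.9 FPKM in EV. The groups lay far apart, with an OVER43 mean 0.536 times the EV mean (limma adjusted p = 2.25e-05, log2 fold change -0.86, SE 0.058). ITGA7 (chr12:56075330-56118489), a laminin receptor chain best known from muscle, was measured at 6.71, 6.87 and 6.79 FPKM in OVER43 and at 12.9, 12.6 and 13.6 FPKM in EV. The ratio of the means was 0.521 (limma adjusted p = 3.32e-05, log2 fold change -0.85, SE 0.062), and again no library of one group reached the other. ITGA6, which pairs with ITGB1 or ITGB4, had means of 9.10 ± 0.647 FPKM in OVER43 and 10.4 ± 1.00 FPKM in EV (SD, n = 3 each). Its groups did not overlap, but the difference did not pass the test (limma adjusted p = 0.134, log2 fold change -0.17), and passed with equal FPKM sums (-0.30, adjusted p = 0.0204).

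The receptors of fibronectin and vitronectin were lower as well. ITGA5 (chr12:54747445-54891472), the alpha chain of the classical fibronectin receptor, was measured at 26.8, 26.1 and 25.9 FPKM in OVER43 and at 43.1, 46.2 and 39.7 FPKM in EV. Every OVER43 library lay below every EV library, with a ratio of means of 0.610 (limma adjusted p = 6.58e-05, log2 fold change -0.69, SE 0.059). ITGB5, which pairs with ITGAV in a vitronectin receptor, was measured at 15.3, 14.4 and 18.1 FPKM in OVER43 and at 26.2, 23.2 and 24.1 FPKM in EV (limma adjusted p = 0.000933, log2 fold change -0.60, SE 0.087). ITGAV, the alpha chain shared by several such receptors, was measured at 11.98, 12.9 and 13.0 FPKM in OVER43 and at 14.8, 15.3 and 16.4 FPKM in EV. The ITGAV groups were closer to each other than those of ITGA5 but did not overlap (limma adjusted p = 0.00917, log2 fold change -0.27, SE 0.064).

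Of the collagen receptor chains, ITGA1 was low, with lower values in OVER43, and ITGA2 did not pass the test. ITGA1 was measured at 1.30, 0.938 and 0.961 FPKM in OVER43 and at 1.92, 1.95 and 1.62 FPKM in EV (limma adjusted p = 0.0169, log2 fold change -0.46, SE 0.12). ITGA1 met the filter on low values through the EV libraries, with 1 OVER43 library above 1 FPKM. It so entered the test through the group where it is high, and its values and p are given as a description. ITGA1 is still counted among the 10 members and the 7 integrin chains called lower. The ITGA1 call ended without OVER43 library 1 (adjusted p = 0.0518), without EV library 0 (0.0554), without EV library 1 (0.0591), and with no filter on low values (0.0523). ITGA2 had means of 9.89 ± 0.602 FPKM in OVER43 and 9.72 ± 0.688 FPKM in EV (SD, n = 3 each), with overlapping groups (limma adjusted p = 0.828, log2 fold change 0.02). ITGAE, the alpha chain that binds E-cadherin, had means of 30.8 ± 2.19 and 27.5 ± 0.332 FPKM. It lay higher in every OVER43 library without passing the test (limma adjusted p = 0.0558, log2 fold change 0.16). It passed without OVER43 library 0 (log2 fold change 0.22, adjusted p = 0.0137) and with a filter at 5 FPKM (adjusted p = 0.0482).

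ITGB1, the beta chain shared by most of these receptors, had the highest level of all members per length. It was measured at 512, 545 and 484 FPKM in OVER43 and at 564, 568 and 555 FPKM in EV. The fall was small beside those of the alpha chains called lower (limma adjusted p = 0.0315, log2 fold change -0.13, SE 0.042). The call ended without any 1 of 5 libraries: the adjusted p was 0.0797 without the OVER43 library 0 and 0.0617 without OVER43 library 2, and 0.0778, 0.0868 and 0.0519 without EV library 0, 1 and 2. It ended also without limma's trend and robust options (0.108) and with no filter on low values (0.179). Under TMM, quantile and equal-sum scaling the ITGB1 fall was larger, at -0.19, -0.31 and -0.27 (limma adjusted p = 0.0083, 0.00632 and 0.00169). With quantile scaling it lay close to that of ITGAV, at -0.32.

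Summed per library, the 7 alpha chains among the members that can pair with ITGB1 came to 83.5 ± 1.33 FPKM in OVER43 and 126.6 ± 4.99 FPKM in EV (SD, n = 3 each), a ratio of 0.660. ITGB1 itself had means of 513.8 ± 30.7 and 562.3 ± 6.64 FPKM, a ratio of 0.914. The sum of the laminin-binding chains was 33.8 ± 0.861 FPKM against 56.9 ± 2.13 FPKM, and that of the alpha-v and fibronectin-binding chains 54.8 ± 1.95 FPKM against 83.0 ± 2.41 FPKM. The collagen-binding sum was 10.95 ± 0.641 FPKM against 11.5 ± 0.861 FPKM, with overlapping groups. These sums are descriptions, given with no test.

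**Figure D2:**
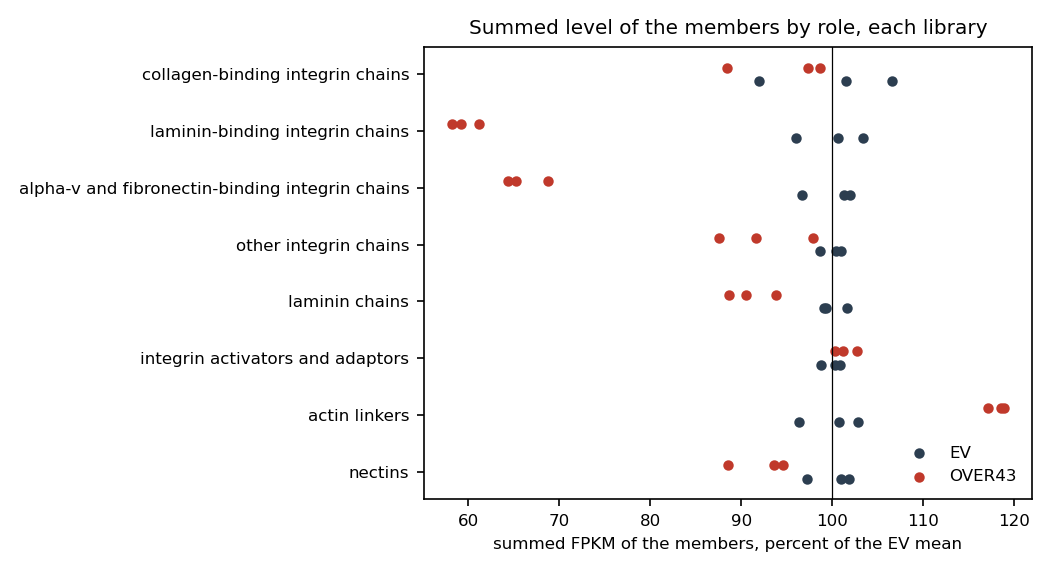
Summed FPKM of the members by role in each library, as a percent of the EV mean of that role, with EV in dark blue and OVER43 in red. The laminin-binding and the alpha-v and fibronectin-binding chains of OVER43 lie far to the left of EV, with ratios of means of 0.595 and 0.661, and the actin linkers to the right, with a ratio of 1.18.

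Genes around some of these integrins were lower too, and around others the median lay above 0. Within 5 Mb of ITGA5, 73 of 146 tested genes were lower and 15 higher, with a median log2 fold change of -0.18, and around ITGA7 67 of 132 were lower and 14 higher, with a median of -0.18. Both members lie on chromosome 12 within 5 Mb of each other. Their windows overlap and each holds the other member, so these counts are not separate. Their own changes of -0.69 and -0.85 were larger than those medians. Around ITGB1 the median of 26 tested genes was -0.23, below the change of ITGB1 itself. Around ITGA3 29 of 86 tested genes were higher and 12 lower, with a median of 0.09. Around ITGB5 20 of 60 were higher and 6 lower, with a median of 0.08. Both medians were opposite in sign to the member. ITGA7 shares 44 exon bases with METTL7B on the other strand, in the GENCODE 29 annotation of GRCh38. METTL7B fell from 63.9 to 13.9 FPKM, and since the strand of the counting is not given in the sources used here, its part in the ITGA7 value was not tested. ITGA1 shares 475 of 18566 exon bases with PELO on the same strand. PELO had means of 10.4 FPKM in OVER43 and 9.00 FPKM in EV and was not called. ITGAE shares 427 of 6657 exon bases with HASPIN on the other strand. HASPIN was higher too, at 10.3 FPKM in OVER43 against 8.14 FPKM in EV (limma adjusted p = 0.00659). Its part in the ITGAE value was not tested.

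**Figure D3:**
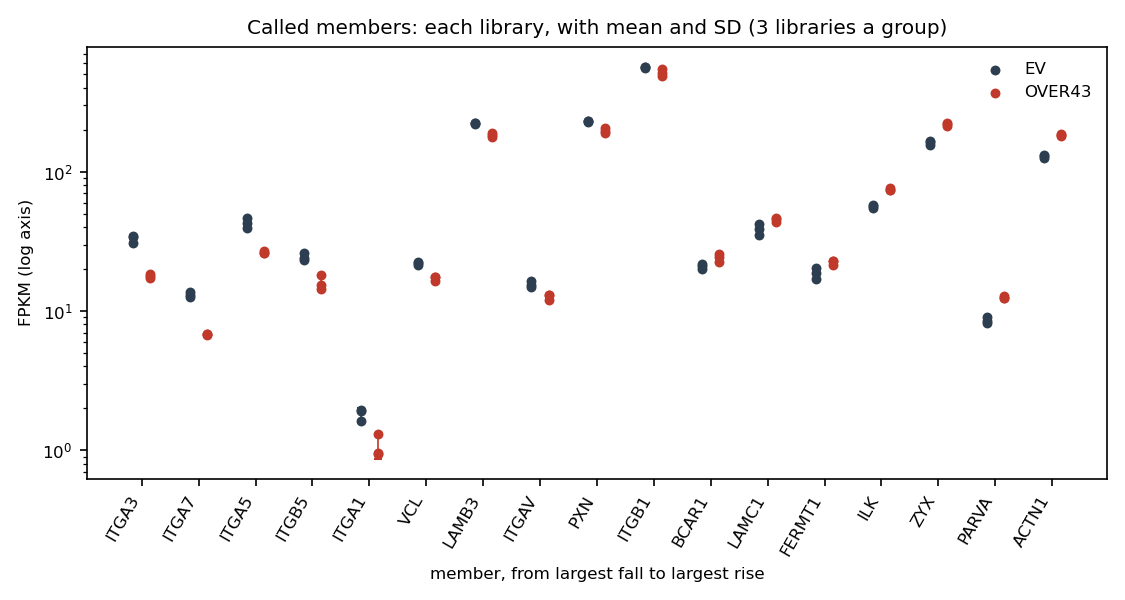
FPKM of the 17 called members in each library on a log axis, from the largest fall to the largest rise, with EV in dark blue and OVER43 in red and bars for the mean and SD of 3 libraries a group. The groups are apart for each of the 17, by the most for ITGA3 and ITGA7 at the left and by little for ITGB1.

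Of the laminin chains, LAMB3 fell, LAMC1 rose and LAMA5, LAMB1 and LAMB2 did not pass the test. LAMB3 (chr1:209788215-209825811), the beta chain of the laminin that anchors epithelia through hemidesmosomes, was measured at 191, 183 and 177 FPKM in OVER43 and at 222, 221 and 226 FPKM in EV. All OVER43 libraries lay below all EV libraries (limma adjusted p = 0.000321, log2 fold change -0.28, SE 0.033). LAMA3, the alpha chain of that laminin, was near 0 in both groups, with means of 0.0174 FPKM (OVER43) against 0.00641 FPKM (EV). LAMC1, the gamma chain of most other laminins, was measured at 45.9, 46.5 and 43.3 FPKM in OVER43 and at 42.0, 34.9 and 38.7 FPKM in EV (limma adjusted p = 0.0236, log2 fold change 0.23, SE 0.068). The LAMC1 call ended under TMM, quantile and equal-sum scaling (adjusted p = 0.0657, 0.196 and 0.326), without limma's trend and robust options (0.0502) and with no filter (0.149). It ended also without OVER43 library 0 or 1 (0.0674 and 0.0682) or EV library 1 (0.0604).

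LAMB2 had means of 26.2 ± 1.76 FPKM in OVER43 and 22.6 ± 2.02 FPKM in EV (SD, n = 3 each; limma adjusted p = 0.052). It passed without OVER43 library 1 (log2 fold change 0.25, adjusted p = 0.0463), without EV library 1 (0.28, adjusted p = 0.0178) and with a filter at 5 FPKM (adjusted p = 0.0416). LAMA5, an alpha chain widespread in epithelial basement membranes, had means of 11.5 and 12.04 FPKM, and LAMB1 of 35.2 FPKM in both groups. LAMA5 passed as lower with equal FPKM sums (log2 fold change -0.20, adjusted p = 0.0414). LAMA1, an alpha chain of embryonic basement membranes that is not a member, rose to 22.6 ± 1.02 FPKM in OVER43, over 9.74 ± 0.735 FPKM in EV (SD, n = 3 each; limma adjusted p = 1.37e-05, log2 fold change 1.14, SE 0.069). In OVER43 the LAMA1 level lay above that of LAMA5, and in EV below it.

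Among the activators and adaptors 4 of 10 tested were higher and 1 was lower, beside 28.4% and 17.5% of all genes, and of the 4 the calls of BCAR1 and FERMT1 ended under each of the 3 other scalings. The kinase-like scaffold ILK and its partner PARVA (alpha-parvin, which links ILK to actin) rose together in the table. ILK was measured at 73.7, 74.2 and 75.8 FPKM in OVER43 and at 56.8, 57.7 and 54.7 FPKM in EV (limma adjusted p = 9.61e-05, log2 fold change 0.40, SE 0.037). PARVA was measured at 12.5, 12.8 and 12.3 FPKM in OVER43 and at 8.23, 9.01 and 8.49 FPKM in EV (limma adjusted p = 0.000414, log2 fold change 0.50, SE 0.062). Neither gene's groups overlapped. The ILK value is uncertain, because TAF10 on the other strand shares 2374 of the 3484 exon bases of ILK in GENCODE 29. TAF10 moved the other way, with 46.3 FPKM in OVER43 against 60.7 FPKM for EV (limma adjusted p = 0.0084). A further gene on that strand, ENSG00000254400, shares 362 of the ILK exon bases and moved the same way as ILK. It had means of 2.85 FPKM in OVER43 and 0.648 FPKM in EV. The part of either gene in the ILK value was not tested.

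The other proteins of that complex did not pass the test. LIMS1 (PINCH), which binds ILK and has near-identical gene copies, had means of 15.7 ± 1.77 FPKM in OVER43 and 17.3 ± 0.918 FPKM in EV (SD, n = 3 each; limma adjusted p = 0.200). LIMS1 passed, as lower, without OVER43 library 2 (log2 fold change -0.22, adjusted p = 0.0399) and with equal FPKM sums (-0.28, adjusted p = 0.0225). PARVB, the other parvin tested, had means of 34.2 ± 3.82 and 28.9 ± 2.16 FPKM (limma adjusted p = 0.0544). It passed without OVER43 library 1 (log2 fold change 0.30, adjusted p = 0.0292), without EV library 0 (0.29, adjusted p = 0.038) and with a filter at 5 FPKM (adjusted p = 0.0416).

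PXN (paxillin), the adaptor on which many focal adhesion proteins dock, was lower: 205, 198 and 190 FPKM in OVER43 against 230, 232 and 226 FPKM in EV. The groups did not overlap (limma adjusted p = 0.00131, log2 fold change -0.21, SE 0.034). BCAR1 (p130Cas), a scaffold phosphorylated by SRC, had means of 24.3 ± 1.58 FPKM in OVER43 and 21.0 ± 0.807 FPKM in EV (SD, n = 3 each; limma adjusted p = 0.0283, log2 fold change 0.20). FERMT1, the kindlin of epithelia, had means of 22.4 ± 0.926 and 18.7 ± 1.71 FPKM (limma adjusted p = 0.0235, log2 fold change 0.25). Both calls ended under TMM scaling (adjusted p = 0.0804 for BCAR1 and 0.0584 for FERMT1), quantile scaling (0.105 and 0.0743), equal sums (0.426 and 0.253) and no filter (0.116 and 0.127). The BCAR1 call ended also without OVER43 library 0 or 2 (0.0747 and 0.0866) or EV library 1 or 2 (0.0887 and 0.059). The FERMT1 call ended without OVER43 library 0 or 1 (0.0741 and 0.0642) or EV library 0 or 2 (0.052 and 0.0595).

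The signalling kinases and talin showed no call. TLN1 (talin), which opens the integrin by binding its beta tail, was measured at 50.2, 45.5 and 50.8 FPKM in OVER43 and at 42.9, 47.9 and 43.3 FPKM in EV (limma adjusted p = 0.131, log2 fold change 0.12, SE 0.061). PTK2 was measured at 93.0, 94.3 and 89.2 FPKM in OVER43 and at 89.8, 85.4 and 87.9 FPKM in EV (limma adjusted p = 0.154, log2 fold change 0.07, SE 0.037), and with quantile scaling it turned to -0.12 (adjusted p = 0.0422). SRC was measured at 24.5, 24.3 and 23.5 FPKM in OVER43 and at 24.2, 25.8 and 27.6 FPKM in EV (limma adjusted p = 0.202, log2 fold change -0.10, SE 0.057), and passed as lower with equal sums (-0.24, adjusted p = 0.0167). The groups of all these genes overlapped.

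Among the actin linkers, alpha-actinin and zyxin rose while vinculin fell. ACTN1 (chr14:69340860-69446157), which crosslinks actin filaments and binds beta integrin tails, was measured at 184, 185 and 179 FPKM in OVER43 and at 131, 129 and 125 FPKM in EV. Its groups lay well apart, with a ratio of means of 1.42 (limma adjusted p = 1.57e-05, log2 fold change 0.50, SE 0.031). The genes around ACTN1 rose as well: within 5 Mb 37 of 57 tested were higher and 4 lower, with a median log2 fold change of 0.41. ACTN4, the other non-muscle alpha-actinin, had means of 159.7 ± 0.999 FPKM in OVER43 and 157.4 ± 8.33 FPKM in EV (SD, n = 3 each; limma adjusted p = 0.688, log2 fold change 0.02). With quantile scaling and with equal sums ACTN4 turned to -0.16 and -0.12 (adjusted p = 0.0106 and 0.0246).

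ZYX (zyxin, chr7:143078173-143220542), which gathers on stretched actin fibres, was measured at 223, 212 and 220 FPKM in OVER43 and at 168, 164 and 156 FPKM in EV (limma adjusted p = 6.58e-05, log2 fold change 0.43, SE 0.036). The median of 37 tested genes around it was 0.01. VCL (vinculin), which clamps talin to actin, was measured at 17.6, 17.7 and 16.4 FPKM in OVER43 and at 22.3, 22.2 and 21.3 FPKM in EV (limma adjusted p = 0.00146, log2 fold change -0.33, SE 0.054). Neither gene's groups overlapped. VCL shares 1109 of 9992 exon bases with AP3M1 on the other strand, and AP3M1 was lower too, at 22.6 FPKM against 27.1 FPKM. VASP, which lengthens actin filaments and is brought to adhesions by zyxin, had means of 62.1 ± 5.27 FPKM in OVER43 and 71.1 ± 7.17 FPKM in EV (SD, n = 3 each; limma adjusted p = 0.092). VASP passed as lower without OVER43 library 1 (log2 fold change -0.26, adjusted p = 0.0377), without EV library 0 (-0.27, adjusted p = 0.0267) and under TMM, quantile and equal-sum scaling (adjusted p = 0.0432, 0.0137 and 0.0148). The actin linkers summed to 640.1 ± 5.03 FPKM in OVER43 and 541.4 ± 18.0 FPKM in EV (SD, n = 3 each), of which ACTN1, ACTN4 and ZYX held most.

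Zyxin's relatives TRIP6 and AJUBA, which are not members, also rose: TRIP6 from 86.9 ± 5.48 to 116.0 ± 3.801 FPKM (SD, n = 3 each; limma adjusted p = 0.000356, log2 fold change 0.41) and AJUBA from 7.82 ± 0.292 to 11.4 ± 0.256 FPKM (0.49, limma adjusted p = 0.000441). LPP and LIMD1, looked up after the values of these were seen, were not called (limma adjusted p = 0.643 and 0.606), and WTIP was below the filter. ENAH (Mena), a relative of VASP that binds zyxin and was likewise looked up after its value was seen, fell from 24.4 ± 1.13 to 10.4 ± 0.918 FPKM (limma adjusted p = 1.58e-05, log2 fold change -1.15).

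**Figure D4:**
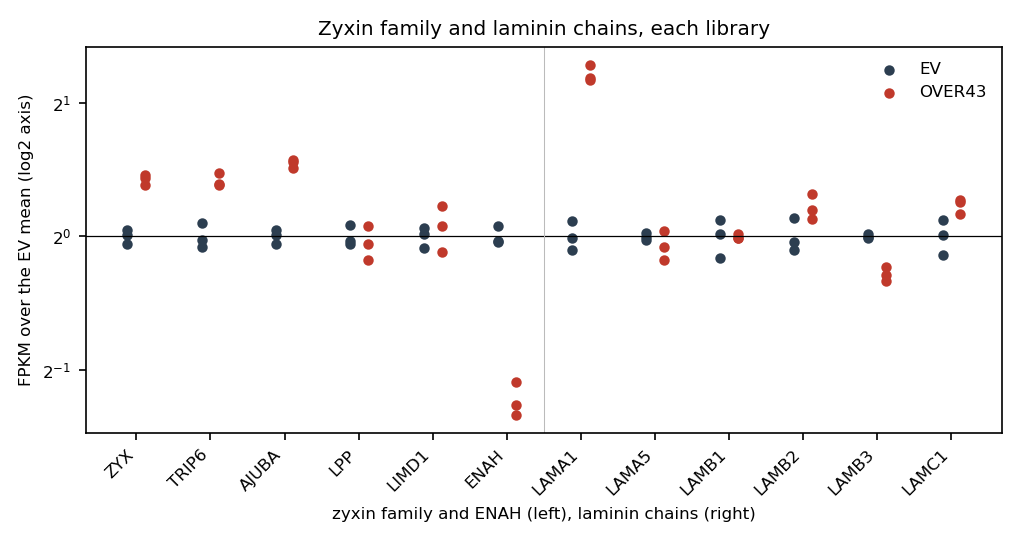
FPKM of zyxin, its relatives and ENAH (left) and of the laminin chains at or above 1 FPKM (right) in each library, over the EV mean of the gene, on a log2 axis, with EV in dark blue and OVER43 in red. ZYX, TRIP6, AJUBA and LAMA1 lie above 1 in all OVER43 libraries and ENAH and LAMB3 below it, while LPP, LIMD1, LAMA5 and LAMB1 overlap EV.

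The nectins NECTIN1 and NECTIN2, cell-cell adhesion molecules that join neighbouring cells, did not pass the test. NECTIN1 had means of 17.1 ± 1.05 FPKM in OVER43 and 19.2 ± 0.914 FPKM in EV (SD, n = 3 each; limma adjusted p = 0.0766), and NECTIN2 of 27.4 ± 0.742 and 29.1 ± 1.496 FPKM (limma adjusted p = 0.237). NECTIN1 passed as lower under TMM, quantile and equal-sum scaling (adjusted p = 0.0276, 0.0218 and 0.00619), and NECTIN2 under the last 2 of these (0.038 and 0.0117).

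Of a further 100 adhesion genes outside the 40, 59 were tested and 15 were higher and 18 lower, together 55.9% of the 59 against 45.9% of all genes, where 28.4% were higher and 17.5% lower. The median log2 fold change of the 59 was 0.03. The 3 largest falls among those whose groups did not overlap were TNC, ITGAX and SVIL. TNC (tenascin C, a matrix protein that loosens adhesion) read 3.68 ± 0.248 FPKM in EV but 0.0451 ± 0.0216 FPKM in OVER43 (SD, n = 3 each). It reached 1 FPKM in the EV libraries only and so entered the test through the group where it is high. TNC is still counted among the 18 lower and in the 55.9%, and its values are given as a description. ITGAX, an alpha chain of leukocyte integrins, fell from 8.33 ± 0.844 to 2.65 ± 0.322 FPKM (limma adjusted p = 3.95e-05, log2 fold change -1.35), with its partner ITGB2 at 0.0140 FPKM in EV and 0.0148 FPKM in OVER43. Of the leukocyte markers, PTPRC and CD3E were listed at 0 in all libraries, while CD68 was high and lower in OVER43, at 376.2 FPKM against 412.8 FPKM (limma adjusted p = 0.00654). Their part in the ITGAX value was not tested. SVIL (supervillin, which links actin to the membrane) fell from 3.89 ± 0.481 to 1.18 ± 0.122 FPKM (limma adjusted p = 0.000116, log2 fold change -1.17). The 3 largest rises were LAMA1, AJUBA and TRIP6, with the values given above.

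The isoform table held 528 transcripts of the members, of which 138 were tested. Of these 10 were higher and 14 lower, against 9.77% higher and 4.82% lower among all 31220 isoform entries tested. The 31220 include entries under a gene's own identifier, described below, which the 138 leave out. ACTN1 was the gene with called transcripts in opposite directions. ACTN1-201 was measured at 150.5, 151.5 and 146.3 FPKM in OVER43 and at 87.7, 99.8 and 100.5 FPKM in EV (limma adjusted p = 0.0023, log2 fold change 0.64, SE 0.057). ACTN1-204 was measured at 1.86, 1.14 and 2.22 FPKM in OVER43 and at 7.98, 8.08 and 7.76 FPKM in EV (limma adjusted p = 0.00281, log2 fold change -1.73, SE 0.17). ACTN1-201 made up 81.8% of the ACTN1 level in OVER43 and 74.7% in EV, and ACTN1-204 0.952% and 6.18%. How the reads were divided between transcripts is Cuffdiff's estimate, and the depth behind each transcript is not given.

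The transcripts differ in 1 exon of the coding sequence, in the EF-hand region that binds calcium in non-muscle alpha-actinin. The exon of ACTN1-201 lies at chr14:68878989-68879069 and that of ACTN1-204 at chr14:68878458-68878523, both on the minus strand of GRCh38 (GENCODE 29). The stretches are printed because they set the coding sequences apart, with the 80 and 65 differing bases in capitals and the shared bases on either side in lower case. The transcripts, of 3779 (ACTN1-201) and 3043 bases (ACTN1-204), also differ in length outside the coding sequence, which starts at base 385 and 207. Whether the estimates rest on this exon or on those parts was not tested.
ACTN1-201: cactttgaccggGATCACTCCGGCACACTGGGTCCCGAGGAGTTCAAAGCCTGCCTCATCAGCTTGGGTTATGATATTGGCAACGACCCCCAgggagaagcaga
ACTN1-204: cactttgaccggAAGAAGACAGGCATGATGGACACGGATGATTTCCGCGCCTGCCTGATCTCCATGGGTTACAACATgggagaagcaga
The transcript with the longer of these exons was the higher one in OVER43 and that with the shorter the lower one.

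**Figure D5:**
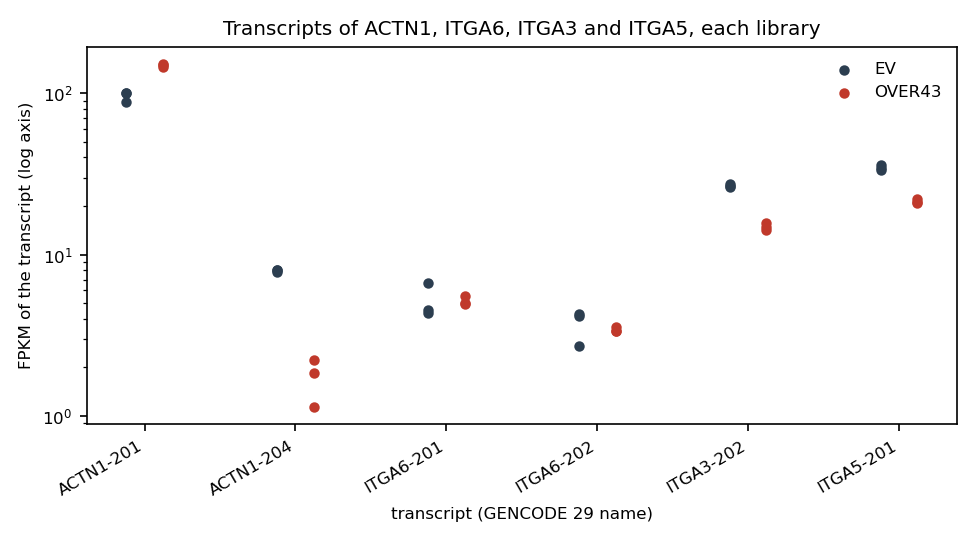
FPKM of 6 transcripts of ACTN1, ITGA6, ITGA3 and ITGA5 in each library on a log axis, with EV in dark blue and OVER43 in red. ACTN1-201 lies higher and ACTN1-204 lower in every OVER43 library, ITGA3-202 and ITGA5-201 lie lower, and the ITGA6 transcripts overlap.

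ITGA3-202, the main transcript of ITGA3, fell with its gene, from 26.7 ± 0.564 to 14.9 ± 0.733 FPKM (SD, n = 3 each; limma adjusted p = 0.000788, log2 fold change -0.80). ITGA6-201 and ITGA6-202, which encode different cytoplasmic tails, were not called: ITGA6-201 had means of 5.17 FPKM in OVER43 and 5.18 FPKM in EV, and ITGA6-202 of 3.44 and 3.73 FPKM. PXN-204 and PXN-202 were both lower (log2 fold change -0.18 and -0.28, limma adjusted p = 0.0131 and 0.0145). The PXN-204 call ended without OVER43 library 1 (adjusted p = 0.0511) and without EV library 1 (0.053), and that of PXN-202 without OVER43 library 1 or 2 (0.0524 and 0.0525).

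The isoform table also holds, for most genes, an entry under the gene's own identifier in place of a transcript's, and the stretch it covers is not given in the sources used here. These entries were low, at 0.0117 to 3.51 FPKM for the 32 tested members. They lay higher in every OVER43 library than in every EV library for 5 members and lower for 16, against 10% and 33.5% of the 11847 such entries of tested genes. Of the 10 tested integrin chains, 8 were lower and 1 higher in this way.

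Promoter sequence was matched by symbol for 31 members in RefSeq's table (build GRCh38.p14), and the 250 bases before each start were searched on both strands. GGAATG, the core bound by TEAD factors, which act with YAP on adhesion genes, was found in 2 of the 31, ITGA5 and VCL. That is 6.45% of the members, below the 11.9% of 35116 promoters, so the match was not more frequent among the members. Both are printed with the match in capitals: it begins 82 bases before the start of ITGA5 (chr12:54419267-54419516, minus strand) and 171 bases before that of VCL (chr10:73997866-73998115, plus strand).
ITGA5: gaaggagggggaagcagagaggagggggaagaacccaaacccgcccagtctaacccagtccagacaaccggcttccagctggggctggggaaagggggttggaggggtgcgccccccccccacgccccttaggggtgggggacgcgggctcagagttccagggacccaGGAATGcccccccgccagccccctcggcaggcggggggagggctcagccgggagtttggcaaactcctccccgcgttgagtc
VCL: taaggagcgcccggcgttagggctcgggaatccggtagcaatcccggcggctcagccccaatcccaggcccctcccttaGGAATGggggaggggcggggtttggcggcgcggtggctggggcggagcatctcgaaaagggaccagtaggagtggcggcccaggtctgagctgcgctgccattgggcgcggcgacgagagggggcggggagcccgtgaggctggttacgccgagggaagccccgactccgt
The CArG box of SRF was found in FLNA and ITGB6, both below the filter, and in 1.16% of all promoters. TGANTCA, the AP-1 site, was found in LAMA3 and in 6.57% of all. GGGCGG, the GC box, was found in 21 of the 31 members and in 42.6% of all promoters, among them 5 members that rose and 5 that fell. A match is a description of these letters only.

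In the authors' deposited table of their own Cuffdiff comparison, 33 members were tested and 10 were marked significant, 4 higher and 6 lower in OVER43. In the authors' deposited table the higher ones were ILK, PARVA, ACTN1 and ZYX, and the lower ones ITGA3, ITGA7, ITGA5, ITGB5, LAMB3 and VCL. All 10 were also among the 17 called by limma. The rest of the 17, ITGA1, ITGB1, ITGAV, PXN, LAMC1, BCAR1 and FERMT1, were not marked significant there (Cuffdiff q-values from 0.0558 for FERMT1 to 0.563 for ITGA1).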

How the data were processed

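PolyA RNA of 6 RKO samples was made into Illumina TruSeq libraries and sequenced (per the labels' protocols). Deposited by the authors were Cuffdiff tables: FPKM per gene and per isoform in each library, and a comparison table with log2 fold changes, a test statistic (a score), p-values and q-values, per the file headers. The submitters' processing notes name Cuffdiff and hg38, but the deposited positions are those of hg19: only 7 of the 40 member loci overlap their gene in GENCODE 29 (GRCh38). The aligner is, like the strand setting, not given in the sources used here. Columns are numbered 0 to 2 where the labels number from 1, so a column was tied to its group alone, and libraries 0, 1 and 2 are named here by column number. The 40 members and the other lists were chosen with earlier results of these data known.

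Genes reaching 1 FPKM in 3 or more of the 6 libraries were fitted on log2(FPKM + 1), pseudocount 1, with limma 3.58.1 in R 4.3.3 (trend and robust, group as the only term, two-sided, Benjamini-Hochberg over all genes tested, threshold 0.05). Fold changes on that scale understate those of low genes. The fit was tested on simulated data. The authors' status HIDATA or FAIL removed 19 genes and 64 isoform entries. Where a symbol had several rows (43 rows for 40 members), the row matching the member's own gene was used. Named with values in every library were called members changed by at least 0.3 (log2) and ITGB1, ITGAV, VCL, TLN1, PTK2 and SRC. A few called members with smaller changes (LAMB3, LAMC1 and PXN) were added after their values were seen. Of the other adhesion genes, the 3 highest and 3 lowest log2 fold changes among called genes with a mean of at least 1 FPKM and no overlap between groups were named. Alternatives were other scalings (TMM, quantile, equal FPKM sums), filters, a pseudocount of 0.1, limma options, the replicate block and leaving out each library. The number of per-library columns left unused was 0.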

Additional observations from a re-analysis of the deposited data

How the results depend on the processing

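Of the 17 called members, 12 kept their call under every alternative run: ILK, PARVA, ACTN1 and ZYX as higher and ITGA3, ITGA5, ITGA7, ITGAV, ITGB5, LAMB3, PXN and VCL as lower. The members called higher fell from 7 to 4 under TMM, quantile and equal-sum scaling and with no filter. Those called lower rose from 10 to 12 under TMM, 15 under quantile scaling and 18 with equal sums, and fell to 8 with no filter. With a filter at 5 FPKM, 10 members were higher and 9 lower. Leaving out 1 library gave 5 to 7 higher and 8 to 10 lower. Over all genes, 2953 to 3158 were higher and 1661 to 1899 lower without 1 library, and equal sums gave 1867 higher and 3579 lower. Over all genes the median log2 change moved from 0.05 to -0.08 with equal sums. Other adhesion genes called higher fell from 15 to 9 under quantile and equal-sum scaling, and without 1 library were 12 to 16 higher and 16 to 19 lower. ACTN4 turned to -0.16 (quantile) and -0.12 (equal sums), and PTK2 to -0.12 (quantile). Member transcripts called higher, 10, became 6 under TMM, 5 under quantile, 6 under equal sums, 2 with no filter, 6 without limma's trend and robust options, and 4 to 11 without 1 library. Those called lower, 14, became 17 under TMM and under quantile scaling and 19 under equal sums. They became 7 with no filter, 9 without those options and 7 to 11 without 1 library. With a filter at 5 FPKM, 12 member transcripts were higher and 17 lower. The causes were not tested. With the replicate block on the column number, 8 members were higher and 11 lower, 3306 and 2010 of all genes, and 14 and 19 of the other adhesion genes, while member transcripts came to 1 higher and 7 lower. Under the block PARVB passed as higher (limma adjusted p = 0.0461) and VASP as lower (0.0285), and the PXN-204 call ended (0.0616). Same-numbered libraries did not deviate together (r = 0.02, -0.09 and 0.03 across genes), so the numbers give no pairing. The filter at 1 FPKM left 8 members out of the test, and they entered it with no filter.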
